A study of Mus musculus with 12 samples.

Results

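Mitochondrial fatty acid oxidation was examined through 32 genes that carry long-chain fatty acids into the mitochondrion and break them down. They were listed by name for their known roles, with earlier results of these data already known, and each was represented by the brightest of the probe sets assigned to that gene symbol alone. Of the 32 genes, 29 were measured in this way, and 26 of these lay above the limit on dim genes, a mean intensity of 132. They are set beside the 8675 genes that passed the same limit, of 12393 measured.

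The cells were mouse embryonic fibroblasts (MEFs) knocked out for PPARγ, a nuclear receptor required for fat cells to form, into which a form of the receptor had been introduced. Every group was differentiated for 6 days, and the 12 Affymetrix arrays fell into 4 groups of 3. The groups were cells with the S273A receptor and no ligand, cells with wild-type receptor given 1 µM rosiglitazone for 24 h, cells with wild-type receptor given 1 µM MRL24 for 24 h, and cells with wild-type receptor and no ligand. S273A replaces Ser273, a phosphorylation site of PPARγ, and the study set out to find genes that depend on that site. Rosiglitazone is a thiazolidinedione and a full agonist of PPARγ, and MRL24 is a ligand of the same receptor with weaker agonist action. The sample titles say mutant for the S273A arrays, and the substitution is given in the design text. Neither source gives the way in which the receptor was delivered, its promoter, a vehicle for the untreated cells or the number of cultures behind the arrays of a group. What the p-values measure is thus the spread among the arrays at hand, and that spread may be technical. No source names more than 1 set of cells for a receptor form, so the substitution and the population of cells that carries it cannot be told apart.

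The median intensity of an array was 297 to 315, and the floor of 1 held 2.11% to 2.48% of its values. Replicate 2 of the untreated wild-type cells stood apart, with a residual SD of 0.142 on the log2 scale against 0.0883 to 0.120 on the other 11 arrays. The labels call the cells adipocytes. Of 11 measured adipocyte markers, 8 lay above the limit. Summed over all 11, intensity was 14156 to 15280 with S273A and 32453 to 32823 with rosiglitazone. It was 20398 to 20579 with MRL24 and 13105 to 14934 in untreated wild-type cells. Most of each sum was Fabp4, a fatty acid carrier, at mean intensities of 9701, 25153, 15339 and 9509 in the same order. With rosiglitazone Fabp4, Lpl, Cd36 and Lipe rose, 4 of the 8, where 3.94% of all tested genes were called higher. Retn, Pparg, Cebpa and Slc2a4 were not called, at 0.03, -0.11, 0.17 and 0.28. With MRL24 4 of the 8 rose as well, Fabp4, Lpl, Cd36 and Slc2a4 (background 3.39%). With S273A Cd36 alone of the 8 rose (background 2.31%). Fabp4, Lpl and Cd36 were higher with rosiglitazone than with MRL24 (background 1.5%). Adipoq, which encodes adiponectin, averaged 97.2 ± 7.90 with S273A, 139 ± 4.76 with rosiglitazone, 68.0 ± 22.5 with MRL24 and 53.5 ± 14.1 without ligand (SD, n = 3 each). Lep, the leptin gene, stayed between 1 and 28.2 on every array. By their means over all arrays, Adipoq and Lep lay under the limit and were not tested. Fibroblast and preadipocyte markers were measured at summed intensities of 90767 to 96128, 99400 to 104416, 105249 to 108871 and 96704 to 107133 in the same order of groups, and 7 of 10 fell with S273A, where 5.48% of all tested genes were called lower. Of the same markers, Thy1 and Pdgfra fell with rosiglitazone (background 4.58%) and Pdgfra fell with MRL24 (background 2.47%). Thy1 and Col3a1 were lower with rosiglitazone than with MRL24 (background 1.16%). No brown or beige adipocyte marker of the 5 above the limit was called by limma in any of the 4 comparisons. At an unadjusted p under 0.05 there were 1 with S273A and 3 with MRL24, where 21.5% and 25.2% of all tested genes passed. The 3 with MRL24 were 1 higher and 2 lower. In whole-culture RNA, fewer cells that express a gene and less RNA of it per cell cannot be told apart. The part of these marker differences in the values that follow was not tested.

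Fatty acids are activated to acyl-CoA by synthetases, passed to carnitine by carnitine palmitoyltransferase 1, carried across the inner mitochondrial membrane and returned to CoA by carnitine palmitoyltransferase 2. Each turn of the β-oxidation spiral then takes an acyl-CoA dehydrogenase, a hydratase, a hydroxyacyl-CoA dehydrogenase and a thiolase, and ends with the release of acetyl-CoA and a shortened chain. The electrons taken by the acyl-CoA dehydrogenases reach the respiratory chain through the electron transfer flavoprotein and its dehydrogenase. In liver, heart and muscle these genes are textbook targets of PPARα and of PGC-1α, whereas white fat cells, which store fatty acids, depend on them less.

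With rosiglitazone 6 of the 26 tested genes rose and none fell, against a background of 3.94% of all tested genes called higher and 4.58% called lower, 8.52% in all. They were Hadhb, Hadha, Acaa2, Acadvl, Etfdh and Etfa, and each was 1.20 to 1.36 times its untreated level. The 26 genes had a median log2 change of 0.13 with rosiglitazone, with 21 positive and 5 negative, against a median of -0.00 over all tested genes. At an unadjusted p under 0.05 there were 15 of the 26 genes, where 23.8% of all tested genes passed, and the arrays of the groups did not overlap in 13 genes and in 26.2% of all tested genes. Neither MRL24 nor the S273A receptor gave a call among the 26 genes, against backgrounds of 5.86% and 7.78% of all tested genes called in either direction. At an unadjusted p under 0.05 there were 6 genes with MRL24 and 4 with S273A, where 25.2% and 21.5% of all tested genes passed. Between the ligands at the same dose and time, 9 of the 26 were higher with rosiglitazone than with MRL24 and none was lower, against backgrounds of 1.5% and 1.16%, or 2.66% in all. A gene was called where limma's moderated test, fitted over all 12 arrays and 8675 genes, gave a Benjamini-Hochberg adjusted p under 0.05. All changes are on a log2(intensity + 16) scale, and the comparisons of S273A, rosiglitazone and MRL24 with untreated wild-type cells share the same 3 untreated arrays.

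**Figure D1:**
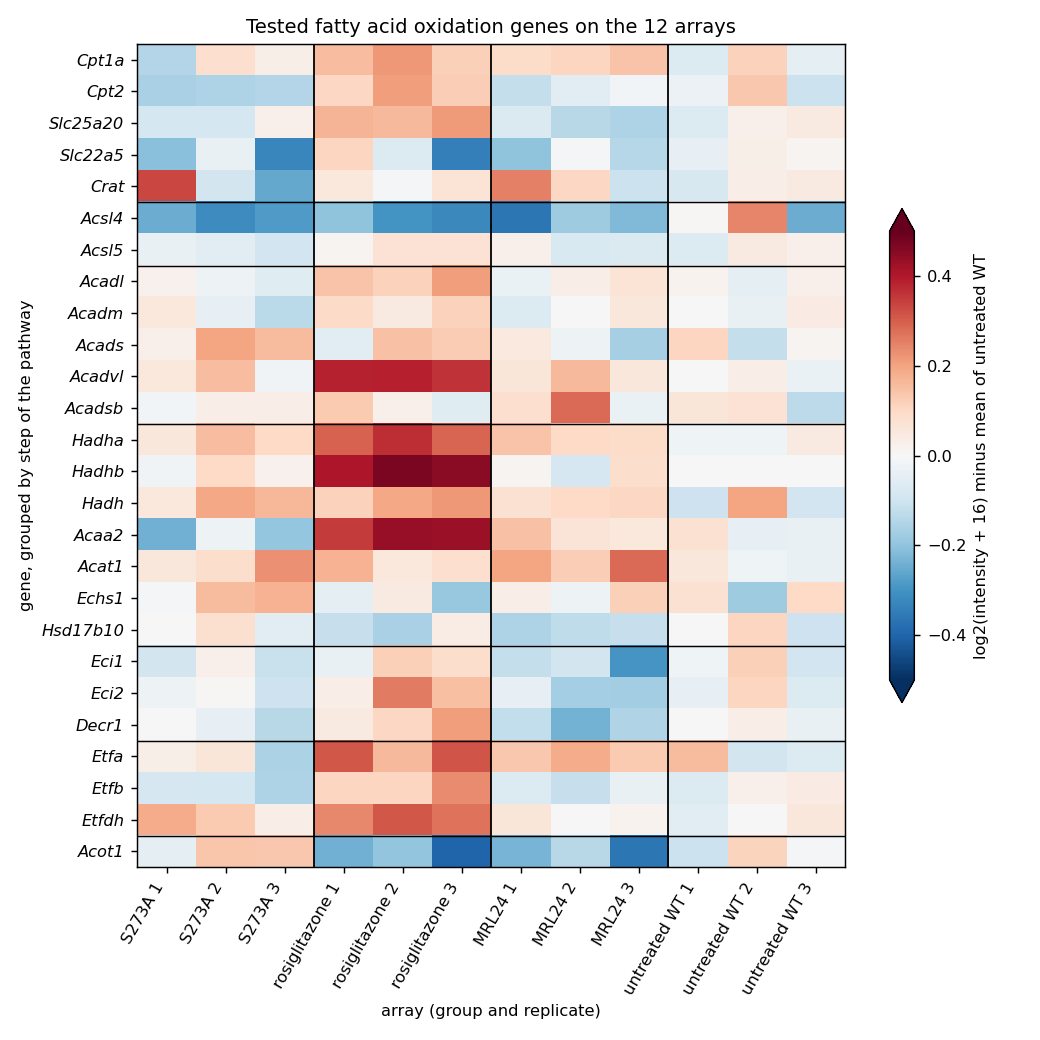
Each row is a tested gene of mitochondrial fatty acid oxidation, grouped by enzymatic step, and each column an array, ordered as S273A, rosiglitazone, MRL24 and untreated wild-type. Colour gives the log2 difference of log2(intensity + 16) from the mean of the 3 untreated wild-type arrays, and the rosiglitazone arrays are the ones whose medians over the tested genes, 0.11 to 0.12, lie above those of all other arrays, -0.06 to 0.03.

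The mitochondrial trifunctional protein carries out the last steps of each turn for long chains. Its β subunit, Hadhb, bears the long-chain thiolase activity. It was measured at 1859.7, 1949 and 1922 with rosiglitazone, 1416, 1321 and 1489.6 with MRL24, and 1399.5, 1405 and 1402 in untreated cells. All rosiglitazone arrays lay above every array of the other groups, and the MRL24 arrays lay on both sides of the untreated ones. Hadhb averaged 1910.4 ± 45.9 with rosiglitazone and 1402 ± 2.56 without ligand (SD, n = 3 each), a log2 change of 0.44 ± 0.05 (SE) with a 95% interval of 0.33 to 0.56, or 1.36-fold (limma adjusted p = 8.47e-05). A further probe set for Hadhb gave 0.38 (adjusted p = 0.00218).

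Hadha, the α subunit with the hydratase and hydroxyacyl-CoA dehydrogenase activities, was measured at 1830.3, 1930.1 and 1828 with rosiglitazone, 1649, 1599 and 1587.5 with MRL24, and 1467, 1467 and 1539.7 without ligand. The 3 groups did not overlap, and MRL24 lay between the other two. The change was 0.32 ± 0.05 (interval 0.21 to 0.42, adjusted p = 0.00072) with rosiglitazone and 0.11 (interval 0.01 to 0.22, adjusted p = 0.177) with MRL24.

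The genes of these subunits lie head to head on mouse chromosome 5, with start sites annotated on opposite strands. Their promoter windows, 250 bases before to 50 after each start (RefSeq, GRCm38.p6), run over chr5:30154931-30155230 on the minus strand for Hadha and chr5:30155003-30155302 on the plus strand for Hadhb, and share 228 bases. The Hadhb window is shown on its own strand because both genes were called higher with rosiglitazone against untreated cells and against MRL24. With MRL24 against untreated cells neither was called, and Hadha had 0.11 and Hadhb 0.01. Capitals mark the shared bases.
Hadhb: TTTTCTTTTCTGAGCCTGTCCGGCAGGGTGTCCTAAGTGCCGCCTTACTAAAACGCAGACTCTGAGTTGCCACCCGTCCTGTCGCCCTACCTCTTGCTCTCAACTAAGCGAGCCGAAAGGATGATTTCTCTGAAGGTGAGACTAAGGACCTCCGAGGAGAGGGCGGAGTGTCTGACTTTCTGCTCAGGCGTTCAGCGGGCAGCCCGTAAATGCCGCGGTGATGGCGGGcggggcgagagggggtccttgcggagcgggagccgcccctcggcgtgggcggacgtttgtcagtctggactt

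Acaa2, the mitochondrial thiolase for medium and shorter chains, was measured at 3167, 3355 and 3352 with rosiglitazone, 2749, 2596 and 2574 with MRL24, and 2613, 2411 and 2418 without ligand. The rosiglitazone arrays stood clear of both other groups, which overlapped each other. Acaa2 averaged 3291 ± 108 with rosiglitazone and 2481 ± 114 without ligand (SD, n = 3 each), 0.41 ± 0.06 on the log2 scale or 1.33-fold (adjusted p = 0.000315). With S273A it was measured at 2094, 2433 and 2166, and the difference of -0.15 (interval -0.28 to -0.03) was not called (adjusted p = 0.128). The other probe sets of Acaa2 gave larger changes with rosiglitazone, 0.53 and 0.57 (adjusted p = 6.09e-05 and 8.06e-05). They also rose with MRL24, by 0.29 and 0.25 (adjusted p = 0.014 and 0.0398), where the brightest probe set gave 0.09 (adjusted p = 0.352). Between the ligands they gave 0.24 (adjusted p = 0.0563) and 0.33 (adjusted p = 0.0217), and with S273A 0.04 and -0.03.

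Hadh, the short-chain hydroxyacyl-CoA dehydrogenase, was not called in any comparison through its brightest probe set, which gave 4775, 5049.9 and 5129 with rosiglitazone and 4104, 5060.3 and 4126 without ligand. The untreated array at 5060.3 is replicate 2, the array that stood apart. Without it Hadh was higher than in untreated cells with S273A, rosiglitazone and MRL24 (adjusted p = 0.00502, 0.00139 and 0.0447). Its second probe set rose with rosiglitazone by 0.27 (adjusted p = 0.0113) and with MRL24 by 0.28 (adjusted p = 0.014). The remaining genes of these steps were not called in any comparison. Acat1, the acetoacetyl-CoA thiolase, had 0.20 with MRL24 (interval 0.07 to 0.33, adjusted p = 0.0636), the change nearest to the limit for that ligand. Its other probe set gave 0.01 with MRL24 (adjusted p = 0.954), and with S273A -0.13 where the brighter gave 0.12. The hydratase Echs1 and the dehydrogenase Hsd17b10 had -0.06 and -0.08 with rosiglitazone. Echs1 averaged 933 ± 66.1 with S273A, 826 ± 67.7 with rosiglitazone, 890.1 ± 46.5 with MRL24 and 866 ± 90.5 without ligand (SD, n = 3 each), and Hsd17b10 averaged 2689 ± 124, 2527 ± 189, 2433 ± 32.9 and 2673 ± 196 in the same order.

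Of the 5 acyl-CoA dehydrogenases, which start each turn and differ in the chain length they take, Acadvl rose with rosiglitazone. This very-long-chain enzyme was measured at 2989.8, 2998 and 2947 with rosiglitazone, 2388, 2565 and 2383 with MRL24, and 2292, 2339.7 and 2235 without ligand. All 3 groups were apart, with MRL24 next to the untreated cells. Acadvl averaged 2978 ± 27.4 with rosiglitazone and 2289 ± 52.5 without ligand (SD, n = 3 each), a log2 change of 0.38 ± 0.05 or 1.30-fold (adjusted p = 0.000187). With MRL24 the change was 0.09 (interval -0.01 to 0.20, adjusted p = 0.262). The long-chain enzyme Acadl had 0.16 with rosiglitazone and fell short of a call (adjusted p = 0.0572), although its arrays did not overlap, at 2357, 2308 and 2465 with rosiglitazone and 2156, 2067 and 2170.2 without ligand. The medium-chain Acadm averaged 1455 ± 96.0 with S273A, 1588 ± 40.2 with rosiglitazone, 1492 ± 65.0 with MRL24 and 1496 ± 41.4 without ligand (SD, n = 3 each). The short-chain Acads averaged 667 ± 41.8, 643 ± 48.9, 589 ± 44.9 and 609.8 ± 48.9 in the same order of groups, and the branched-chain Acadsb 162 ± 3.45, 164 ± 11.9, 175 ± 21.3 and 160.2 ± 13.6. The changes of these 3 genes with rosiglitazone were 0.09, 0.07 and 0.03, and none was called in any comparison.

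The electron transfer flavoprotein takes electrons from these dehydrogenases, and Etfdh encodes the membrane enzyme that hands them on to ubiquinone. Etfdh was measured at 733, 704.5 and 658 with S273A, 763, 801 and 779 with rosiglitazone, 672, 644 and 651 with MRL24, and 618, 642 and 669 without ligand. Its change with rosiglitazone was 0.27 ± 0.06 (interval 0.14 to 0.41, adjusted p = 0.0115), and the MRL24 and untreated arrays overlapped. Etfa, the α subunit, was measured at 2425, 2184 and 2430.4 with rosiglitazone and 2177, 1829.6 and 1859.8 without ligand. The lowest rosiglitazone array lay just above the highest untreated one, and the change was 0.26 ± 0.07 (interval 0.11 to 0.42, adjusted p = 0.0327). That call was lost in 8 of 25 alternative settings. Etfb, the β subunit, did not reach a call against untreated cells (0.15, adjusted p = 0.0791), at 2918, 2915 and 3190.1 with rosiglitazone and 2581, 2757 and 2789 without ligand.

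**Figure D2:**
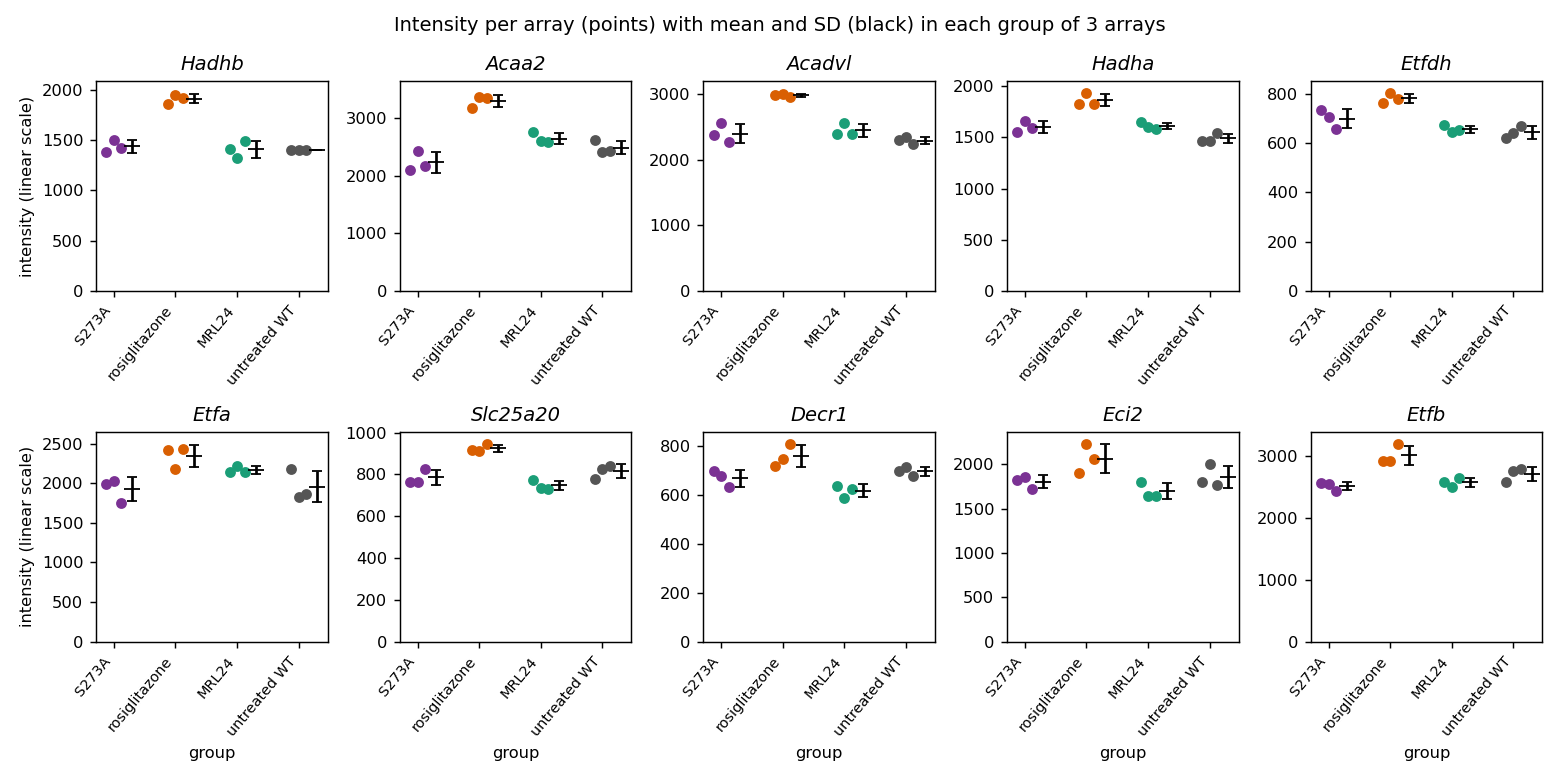
Each panel is a gene called in at least 1 comparison, the vertical axis is intensity on a linear scale, coloured points are arrays and black marks are group means ± SD (n = 3), in the order S273A, rosiglitazone, MRL24 and untreated wild-type. For Hadhb the rosiglitazone arrays lie between 1859.7 and 1949 and all others at or under 1504, whereas for Slc25a20, Etfb, Decr1 and Eci2 the MRL24 mean lies below the untreated mean.

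None of the 5 tested genes of carnitine uptake and the carnitine shuttle was called against untreated cells by limma with either ligand, and 3 had an unadjusted p under 0.05 with rosiglitazone and 0 with MRL24, where 23.8% and 25.2% of all tested genes did. Cpt1a, the outer-membrane transferase at which entry of long chains is controlled, was measured at 1598, 1880.2 and 1809 with S273A, 1972, 2062 and 1927 with rosiglitazone, 1889.7, 1907 and 1958 with MRL24, and 1688, 1922 and 1712 without ligand. Its rosiglitazone arrays all lay above the untreated ones, by as little as the difference between 1927 and 1922, and the change was 0.16 (interval 0.03 to 0.30, adjusted p = 0.133). Cpt2, the inner-membrane transferase, had 0.15 (adjusted p = 0.190) and Slc25a20, the carnitine-acylcarnitine translocase, 0.18 (adjusted p = 0.0727). The carnitine transporter Slc22a5 and the carnitine acetyltransferase Crat had -0.10 and 0.04. Slc22a5 averaged 359 ± 37.7 with S273A, 385 ± 61.9 with rosiglitazone, 378 ± 27.9 with MRL24 and 410.2 ± 11.2 without ligand (SD, n = 3 each), and its other probe set had changes of the opposite sign against untreated cells. Crat averaged 557 ± 125, 566 ± 15.5, 587 ± 74.1 and 551 ± 27.2 in the same order.

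With the S273A receptor Cpt2 was measured at 862, 866 and 871, below each of the untreated arrays at 946, 1063 and 895. The difference of -0.15 (interval -0.29 to -0.02) was not called for this probe set (adjusted p = 0.180), but its other probe set fell by 0.44 (adjusted p = 0.0124). For Cpt1a the brightest probe set gave -0.01 with S273A, and a dimmer one fell by 0.38 (adjusted p = 0.0364) while the other gave -0.22 (adjusted p = 0.0996). The probe sets of these genes thus did not give the same call for the receptor form.

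The auxiliary enzymes prepare unsaturated chains for the spiral: Eci1 and Eci2 shift double bonds and Decr1 reduces dienoyl-CoA. Their changes with rosiglitazone were 0.06, 0.15 and 0.12 and with MRL24 -0.17, -0.13 and -0.17, none of them called. Of the synthetases, Acsl5 averaged 1198 ± 25.2 with S273A, 1299 ± 32.1 with rosiglitazone, 1216 ± 50.2 with MRL24 and 1252 ± 52.8 without ligand (SD, n = 3 each). Acsl5 had a change of 0.05 with rosiglitazone and Acsl4, which prefers arachidonate, -0.27 (adjusted p = 0.0871). Acsl4 was measured at 806, 769 and 787 with S273A, 833, 778 and 766 with rosiglitazone, 745, 847 and 822 with MRL24, and 965, 1140.4 and 806 without ligand. The untreated arrays were the ones that spread, and without untreated replicate 3, at 806, Acsl4 was called lower in the 3 comparisons with untreated cells (adjusted p = 0.00729 for S273A, 0.00725 for rosiglitazone and 0.0177 for MRL24). These values belong to the brightest of its probe sets. A second gave -0.14, -0.16 and -0.05 with S273A, rosiglitazone and MRL24, and the dimmest 0.13, 0.06 and 0.06, on the other side of 0, with none of them called.

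Acot1, an acyl-CoA thioesterase, was measured at 142, 146 and 125 with rosiglitazone, 142, 153 and 129 with MRL24, and 156.5, 185 and 169 without ligand. Both ligand groups lay below the untreated arrays, but the changes of -0.28 and -0.24 were not called (adjusted p = 0.180 and 0.226). Its gene shares sequence with Acot2, and a brighter probe set assigned to both was not used. That probe set read 479, 491 and 529 with rosiglitazone, above the untreated arrays at 469, 356 and 413. With MRL24 it read 446, 425 and 504 and overlapped the untreated arrays. The values of the pair are thus uncertain, and so is the direction with rosiglitazone. Acss1, Acot2 and the malonyl-CoA decarboxylase Mlycd lay under the limit, at mean intensities of 22.3, 119 and 63.7, and were not tested. Mlycd, which removes the malonyl-CoA that restrains entry, was measured at 84.5, 92.3 and 78.7 with MRL24 and 40.9, 79.5 and 45.5 without ligand, and the groups overlapped. Acsl1, Acsl3 and Cpt1b were not analysed here.

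**Figure D3:**
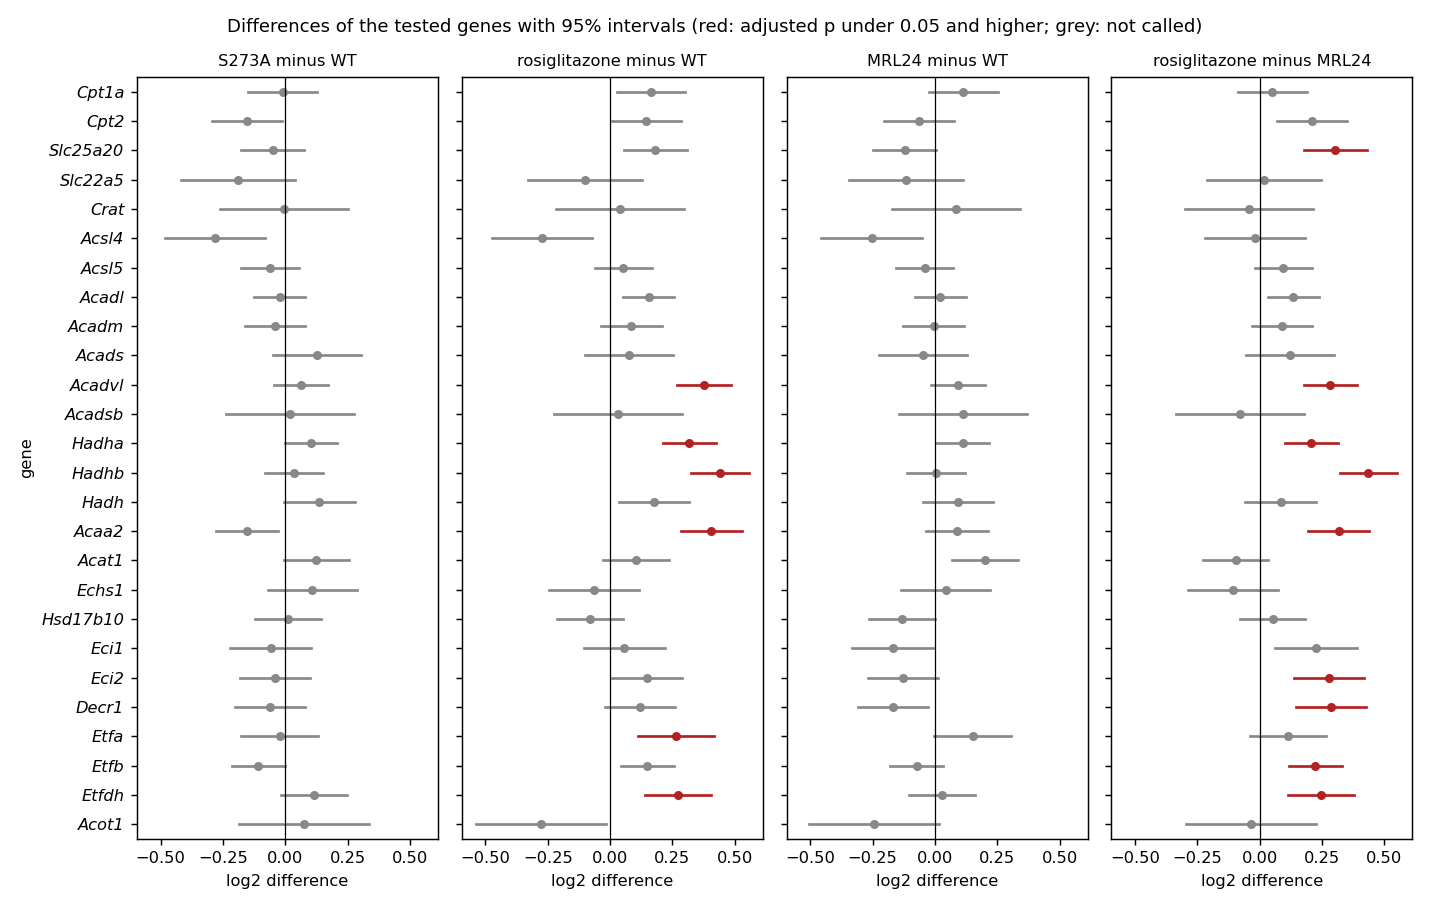
Points are log2 differences of log2(intensity + 16) and bars their 95% intervals for each tested gene of mitochondrial fatty acid oxidation in the 4 comparisons. Red marks genes called higher at a limma adjusted p under 0.05, and grey marks genes not called. Red points occur for rosiglitazone against untreated cells (6 genes) and for rosiglitazone against MRL24 (9 genes), all to the right of 0.

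Rosiglitazone and MRL24 were the pair of compounds compared, at 1 µM and 24 h each. The median difference of the 26 genes was 0.12 on the log2 scale, with 20 positive and 6 negative, against a median of -0.02 over all tested genes. At an unadjusted p under 0.05 there were 12 genes, where 15.4% of all tested genes passed that limit. The arrays of the ligands did not overlap in 13 of the 26 genes and in 26% of all tested genes. Hadhb had the widest difference, 0.44 ± 0.05 (interval 0.32 to 0.55, adjusted p = 0.000212), and averaged 1910.4 ± 45.9 with rosiglitazone and 1409 ± 84.4 with MRL24 (SD, n = 3 each). Acaa2 differed by 0.32 (interval 0.19 to 0.44, adjusted p = 0.00619), Acadvl by 0.28 (interval 0.18 to 0.39, adjusted p = 0.0052) and Hadha by 0.21 (interval 0.10 to 0.31, adjusted p = 0.0353). Etfdh differed by 0.25 (interval 0.11 to 0.38, adjusted p = 0.0456).

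The 4 other genes called between the ligands were not called between either ligand and untreated cells. Slc25a20 was measured at 917, 913 and 946 with rosiglitazone, 774, 738 and 730.5 with MRL24, and 776, 828 and 839.8 without ligand. Its untreated arrays lay between those of the ligands, which differed by 0.30 ± 0.06 (interval 0.18 to 0.43, adjusted p = 0.0101). A second probe set for Slc25a20 gave 0.17 (adjusted p = 0.359). Decr1 had 717, 747 and 805 with rosiglitazone, 637, 587 and 625 with MRL24, and 697, 711 and 677 without ligand, again with the untreated arrays in between. The ligands differed by 0.29 ± 0.07 (interval 0.15 to 0.43, adjusted p = 0.0289), but the other probe set of Decr1 gave -0.33 (adjusted p = 0.469), and with the mean of its probe sets the difference was -0.023.

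Eci2 was measured at 1900.1, 2224 and 2061 with rosiglitazone and 1802, 1647 and 1642 with MRL24, a difference of 0.28 ± 0.07 (interval 0.14 to 0.42, adjusted p = 0.0346). Etfb had 2918, 2915 and 3190.1 with rosiglitazone and 2582, 2498 and 2639 with MRL24, a difference of 0.22 ± 0.05 (interval 0.12 to 0.33, adjusted p = 0.0258). In both genes the arrays of the ligands did not overlap.

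Differences between the ligands that were not called had intervals that leave room for effects of the called size in some genes. Etfa differed by 0.11 (interval -0.04 to 0.27) and Cpt2 by 0.21 (interval 0.07 to 0.35, adjusted p = 0.109). Cpt1a differed by 0.05 (interval -0.09 to 0.19) and Acadm by 0.09 (interval -0.03 to 0.21). Of the 9 calls, Hadhb, Acaa2 and Acadvl held in all 25 alternative settings. The count of 9 was 3 without rosiglitazone replicate 3, 3 without MRL24 replicate 2, 3 without MRL24 replicate 3, 4 without rosiglitazone replicate 2 and 5 without MRL24 replicate 1.

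**Figure D4:**
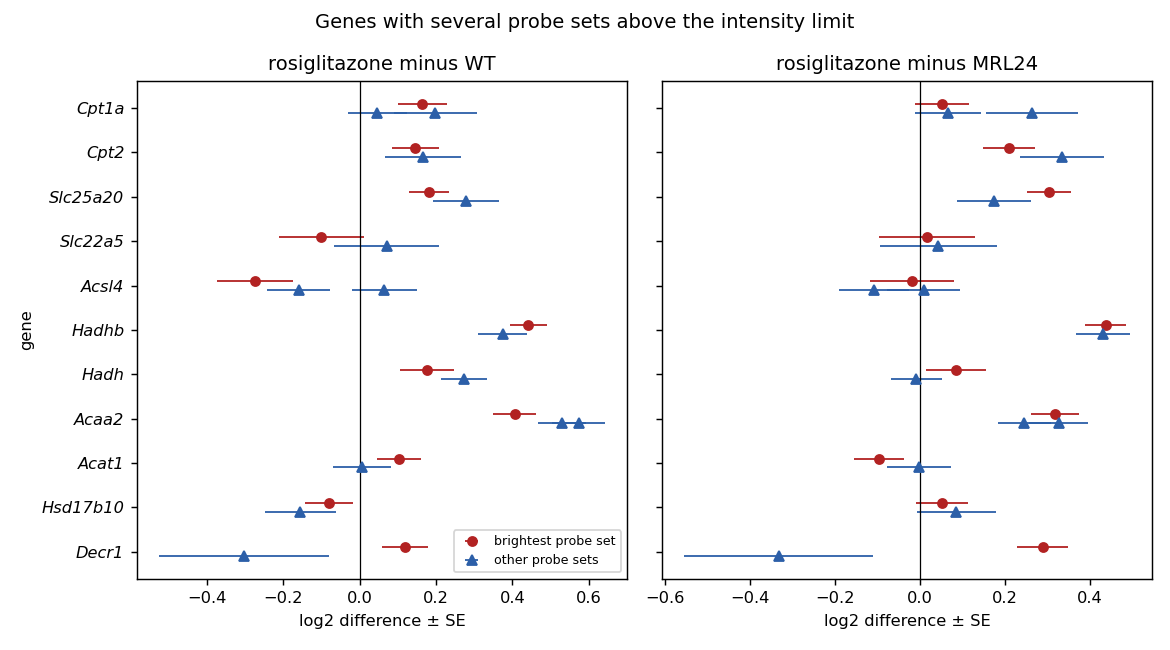
For the genes with several probe sets above the limit, points are the log2 differences of each such probe set with bars of ± SE. The panels are rosiglitazone against untreated cells and rosiglitazone against MRL24, and the brightest probe set, which was used, has its own marker. Hadhb and Acaa2 have probe sets on the same side of 0 with rosiglitazone, whereas those of Decr1 lie on opposite sides between the ligands, at 0.29 and -0.33.

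Among the 11 genes with several probe sets above the limit, the remaining differences in sign were in changes that were not called. With S273A the other probe set gave -0.08 for Hadhb, -0.09 for Hsd17b10 and 0.04 for Slc25a20, against 0.03, 0.01 and -0.05 for the brightest. With MRL24 it gave -0.05 for Hadhb and 0.10 for Slc25a20, against 0.01 and -0.12, and the others of Cpt1a gave -0.02 and -0.06 against 0.11. The other probe set of Decr1 gave -0.30 with rosiglitazone and 0.03 with MRL24, against 0.12 and -0.17. Between the ligands it gave -0.01 against 0.08 for Hadh, and the dimmest of Acsl4 gave 0.01 against -0.02.

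For the S273A receptor the 26 genes ranged from -0.28 to 0.14, with a median of -0.02. At an unadjusted p under 0.05 there were 4 genes, all lower than in untreated wild-type cells, where 21.5% of all tested genes passed that limit. Of all tested genes, 2.31% were called higher and 5.48% lower with S273A. The arrays of the groups did not overlap in 4 of the 26 genes and in 23% of all tested genes. The 4 genes of lowest p were Acsl4 (-0.28, adjusted p = 0.0868), Acaa2, Cpt2 and Etfb (-0.11, adjusted p = 0.226). The 6 genes called with rosiglitazone had changes here of -0.15 (interval -0.28 to -0.03) for Acaa2, -0.02 (-0.18 to 0.13) for Etfa, 0.03 (-0.08 to 0.15) for Hadhb, 0.06 (-0.04 to 0.17) for Acadvl, 0.10 (-0.00 to 0.21) for Hadha and 0.12 (-0.02 to 0.25) for Etfdh.

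For MRL24 the 26 genes ranged from -0.25 to 0.20, with a median of 0.00, and 6 had an unadjusted p under 0.05 where 25.2% of all tested genes did. With MRL24 3.39% of all tested genes were called higher and 2.47% lower. The arrays of the groups did not overlap in 7 of the 26 genes and in 29.7% of all tested genes. The interval for Hadhb was -0.11 to 0.12 around 0.01, and for Acaa2 -0.03 to 0.21. The absence of a call with MRL24 rests on the choice of probe set for Acaa2 and Hadh, as given above: with the mean over all probe sets of a gene both were called higher. It rests on single untreated arrays too. Without untreated replicate 1, Acat1 and Etfa were called higher (adjusted p = 0.0492 and 0.0489), and the calls of Hadh without replicate 2 and of Acsl4 without replicate 3 are given above.

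In the promoter windows, 27 of the 32 genes had an entry among those used from the RefSeq table (GRCm38.p6), with 28 windows. Their median GC content was 61.8% against 52.7% over all 32851 windows used. The windows of a chromosome were left out before the search, so the windows used do not cover the whole genome. No window was used for Acaa2, Acat1, Crat, Cpt1b and Decr1, and a gene without a window here may still have a RefSeq entry. PPARγ binds DNA with the retinoid X receptor at direct repeats of the hexamer AGGTCA spaced by a base, written AGGTCANAGGTCA. The hexamer alone, read on either strand, stood in 4 of 28 windows (14.3%), those of Acadm, Acadvl, Cpt1a and Echs1, and in 16.3% of all windows. The repeat with up to 2 mismatches, read on either strand and free to overlap the hexamer, stood in 3 of 28 windows (10.7%), those of Echs1, Etfa and Slc25a20, and in 3.86% of all windows. With up to 3 mismatches it stood in 10 of 28 windows (35.7%) and in 24.6% of all windows. The hexamer of Echs1 lies within its repeat. A match of letters is not a binding site, and windows without a match say nothing of the receptor's binding elsewhere.

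The windows of Acadvl, Etfa, Slc25a20 and Echs1 are shown because 3 of them belong to genes called with rosiglitazone, against untreated cells or against MRL24, and Echs1 holds a match but was not called. They are examples of windows with a match. The windows of the called genes Hadha, Hadhb, Etfdh, Etfb and Eci2 held neither the hexamer nor the repeat with up to 2 mismatches, and Acadm and Cpt1a held the hexamer and were not called. They lie at chr11:70015379-70015678 on the minus strand for Acadvl, chr9:55512194-55512493 on the minus strand for Etfa, chr9:108661886-108662185 on the plus strand for Slc25a20 and chr7:140116372-140116671 on the minus strand for Echs1. Each is read 5′ to 3′ on the gene's strand. Capitals mark the hexamer in Acadvl, starting 87 bases before the start site, and the repeat in the others, starting at 77 before, 7 after and 83 bases before it.
Acadvl: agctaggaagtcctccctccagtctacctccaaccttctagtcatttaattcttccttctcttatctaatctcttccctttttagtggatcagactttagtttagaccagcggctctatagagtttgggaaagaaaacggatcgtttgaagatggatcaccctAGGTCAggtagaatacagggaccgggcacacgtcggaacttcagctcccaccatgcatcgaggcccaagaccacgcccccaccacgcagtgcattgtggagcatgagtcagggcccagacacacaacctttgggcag
Etfa: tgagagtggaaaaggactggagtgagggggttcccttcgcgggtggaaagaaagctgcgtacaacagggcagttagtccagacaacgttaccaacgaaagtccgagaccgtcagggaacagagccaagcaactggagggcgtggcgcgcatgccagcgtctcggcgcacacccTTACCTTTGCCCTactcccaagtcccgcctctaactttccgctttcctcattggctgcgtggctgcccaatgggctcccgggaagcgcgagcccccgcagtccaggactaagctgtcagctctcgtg
Slc25a20: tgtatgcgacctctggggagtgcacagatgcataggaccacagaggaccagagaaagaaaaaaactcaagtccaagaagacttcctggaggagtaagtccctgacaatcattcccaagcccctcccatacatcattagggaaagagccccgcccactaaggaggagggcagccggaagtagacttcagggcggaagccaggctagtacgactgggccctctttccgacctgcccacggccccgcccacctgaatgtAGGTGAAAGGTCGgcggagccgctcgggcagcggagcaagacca
Echs1: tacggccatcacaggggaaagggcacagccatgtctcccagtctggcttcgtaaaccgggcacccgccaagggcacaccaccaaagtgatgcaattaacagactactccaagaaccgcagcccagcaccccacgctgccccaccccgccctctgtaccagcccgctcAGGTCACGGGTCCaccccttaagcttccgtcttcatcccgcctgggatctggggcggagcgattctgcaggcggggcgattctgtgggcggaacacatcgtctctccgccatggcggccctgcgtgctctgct

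The neighbouring pathways were described from lists of the same kind. Of 11 tested genes of peroxisomal fatty acid oxidation, which shortens very long and branched chains, 5 rose with rosiglitazone and none fell (45.5% higher, against 3.94% of all tested genes higher and 4.58% lower). Acaa1b, a peroxisomal thiolase, was measured at 756, 717 and 735 with rosiglitazone, 246, 247 and 193 with MRL24, and 118, 144 and 147 without ligand. It rose by 2.31 with rosiglitazone (adjusted p = 1.67e-08) and by 0.68 with MRL24 (adjusted p = 0.0104). Acaa1b was the single gene of the 11 called with MRL24 (9.09%), where 3.39% of all tested genes were called higher. Ech1, a dienoyl-CoA isomerase, rose by 0.48 with rosiglitazone (adjusted p = 4.26e-05), and Hsd17b4, Pex11a and Scp2 rose by 0.33, 0.37 and 0.23. Between the ligands, Acaa1b, Ech1 and Hsd17b4 were higher with rosiglitazone, by 1.63, 0.40 and 0.30. These were 27.3% of the 11, against 1.5% of all tested genes called higher. The list's median change with rosiglitazone was 0.02.

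Of 27 other tested genes of acyl-CoA and carnitine metabolism, 3 rose with rosiglitazone (11.1%). Of all tested genes, 3.94% were called higher and 8.52% in either direction. The 3 were the thioesterase Acot7 (0.40, adjusted p = 0.000352), Echdc2 (0.56, adjusted p = 0.0232) and Aldh9a1 (0.27, adjusted p = 0.0321), an enzyme of carnitine synthesis. The median of that list was 0.00. With MRL24 1 of the 27 was called (3.7%, against 3.39% of all tested genes called higher). It was the synthetase Acsf2, which rose by 0.33 (adjusted p = 0.0357). Between the ligands, Acot7 and Aldh9a1 were higher with rosiglitazone, by 0.30 and 0.36 (7.41% of the 27, against 1.5% of all tested genes). Of 21 tested genes of general mitochondrial content, 3 rose with rosiglitazone (14.3%, against 3.94% of all tested genes higher and 8.52% called in either direction), with a list median of 0.02. They were the citrate synthase gene Cs (0.22, adjusted p = 0.00371), the import pore gene Tomm40 (0.35, adjusted p = 0.028) and the adenine nucleotide carrier gene Slc25a5 (0.18, adjusted p = 0.00895). Cs was measured at 4005, 3887 and 3925 with rosiglitazone, 3679.6, 3561 and 3786 with MRL24, and 3427, 3380.0 and 3346 without ligand. It also rose with S273A by 0.14 (adjusted p = 0.0453). With S273A it was the 1 gene of the 21 called (4.76%), where 2.31% of all tested genes were called higher and 5.48% lower. With MRL24 the protease gene Lonp1 rose by 0.16 (adjusted p = 0.0388) and the chaperonin gene Hspe1 fell by 0.34 (adjusted p = 0.0216). These were 9.52% of the 21, where 3.39% of all tested genes were called higher and 2.47% lower. Slc25a5 was higher with rosiglitazone than with MRL24, by 0.27, the 1 call of the 21 (4.76%, against 1.5% of all tested genes higher).

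No gene of 14 tested regulators was called by limma with rosiglitazone, and 2 had an unadjusted p under 0.05, where 23.8% of all tested genes did. With S273A 2 of the 14 were called lower, where 5.48% of all tested genes were. These were Lpin1 and Pprc1, which encode a coactivator of PPARα and a relative of PGC-1α, at falls of 0.32 and 0.25 (adjusted p = 0.0418 and 0.0492). With MRL24, where 3.39% of all tested genes were called higher, 1 of the 14 was called: Acaca rose by 0.64 (adjusted p = 0.0454). It encodes an acetyl-CoA carboxylase, whose product malonyl-CoA inhibits carnitine palmitoyltransferase 1. Ppara was measured at 1 to 26.3, under the limit on every array. Of the 3 tested genes of ketone body metabolism none was called by limma in any comparison. With S273A 2 of them had an unadjusted p under 0.05, as did 2 with rosiglitazone and 0 with MRL24, where 21.5%, 23.8% and 25.2% of all tested genes did.

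Genes known as PPARγ targets outside oxidation had larger changes. With rosiglitazone 8 of 12 tested genes rose, with a list median of 0.51, where 3.94% of all tested genes were called higher. Cd36, a fatty acid transporter, was measured at 1442, 1448 and 1376 with rosiglitazone, 405, 406 and 422 with MRL24, and 177, 150.3 and 164 without ligand. It rose 8.02-fold with rosiglitazone, and by 1.25 on the log2 scale with MRL24. Angptl4, an inhibitor of lipoprotein lipase, rose by 1.42 with rosiglitazone, Fabp4 by 1.41, and Lpl, lipoprotein lipase itself, by 0.83. Pdk4, which encodes a kinase that restrains pyruvate oxidation, rose by 0.93, and the lipid droplet gene Plin2 by 0.61. With S273A 4 of the 12 were called, where 2.31% of all tested genes were called higher and 5.48% lower. Cd36 and Pnpla2 rose, by 0.82 and 0.27, and Angptl4 and Pdk4 fell, by 0.44 and 0.40. With MRL24 4 of the 12 rose, Cd36, Fabp4 (0.69), Angptl4 (0.47) and Lpl (0.24), with a list median of 0.21. Of all tested genes, 3.39% were called higher with MRL24. Between the ligands 6 of the 12 were higher with rosiglitazone, where 1.5% of all tested genes were. The differences were 1.75 for Cd36, 0.95 for Angptl4, 0.72 for Pdk4, 0.71 for Fabp4, 0.58 for Lpl and 0.49 for Plin2. No change among the 26 genes of mitochondrial fatty acid oxidation in any comparison was larger than 0.44 on the log2 scale.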

How the data were processed

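Total RNA was labelled with biotin and hybridised to 1-colour Affymetrix arrays, per the labels' protocols and the platform. The authors deposited intensity values on a linear scale with a floor of 1 and near-identical array medians, with the method of summary and normalization not given in the sources used here. The 22690 probe sets included 64 controls. The platform annotation gave a single symbol to 20380, several to 691, and 1555 were not named here. Those with several symbols or none were not used. Entrez IDs allowed a check of 20351 symbols, of which 0 changed.

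Each gene was represented by its brightest probe set by the mean over all arrays. Genes under the 30th percentile of genes, an intensity of 132, were left out. Values were used as log2(intensity + 16), which understates the folds of dim genes, and fitted over all 12 arrays with limma 3.58.1 in R 4.3.3 (lmFit, eBayes with a trend). The fit had a median residual SD of 0.0969, with 8 residual and on average 7.56 prior degrees of freedom. Calls needed a Benjamini-Hochberg adjusted p under 0.05 over 8675 genes. The scripts were tested on simulated data. With 3 arrays a group, an exact test cannot give a p below 0.1, and the number of arrays limits the precision.

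All 32 members are accounted for, with array values for called ones. From other pathway lists the called genes are named, up to 6 a comparison by size of change. Values are given for other probe sets of a member where they differ in sign or call. Genes outside this rule were picked after their values were seen. The members and lists were chosen with earlier results of these data known. Alternatives covered the scaling, the filter, the pseudocount, the probe set rule, the model and each array left out. Promoters came from a RefSeq table (GRCm38.p6), with the windows of a chromosome left out, and the files name no build. Figures were drawn with matplotlib 3.10.9 (python 3.11.15).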

Additional observations from a re-analysis of the deposited data

How the results depend on the processing

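Of 25 alternative settings, 24 were planned and 1, a filter at the 30th percentile of all probe sets (an intensity of 101), was added after seeing the data. The calls of Hadhb, Acaa2, Acadvl and Hadha with rosiglitazone against untreated cells, and of Hadhb, Acaa2 and Acadvl against MRL24, held in all 25. Against untreated cells, Etfdh was lost without rosiglitazone replicate 2 (adjusted p = 0.0589) and Etfa in 8 settings (highest adjusted p = 0.11). Between the ligands, Etfdh was lost in 10 settings, Hadha in 8, Decr1 in 7, Eci2 and Etfb in 6 each and Slc25a20 in 3. With the mean of all probe sets Decr1 turned to -0.023 (adjusted p = 0.946), and the called members numbered 2 with S273A (Hadh higher, Cpt2 lower) and 2 with MRL24 (Hadh and Acaa2). With array weights 1 member was called with S273A (Hadh). The cause was not tested.

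Leaving out each array in turn gave 0 to 1 called members with S273A, 5 to 8 with rosiglitazone, 0 to 2 with MRL24 and 3 to 10 between the ligands. Over all genes the calls ranged from 396 to 649, 392 to 787, 70 to 838 and 99 to 494 in the same order. The lowest came without S273A replicate 3, rosiglitazone replicate 2, MRL24 replicate 3 and rosiglitazone replicate 3. Without untreated replicate 2, Cpt1a and Cpt2 were also called with rosiglitazone (adjusted p = 0.0455 and 0.0493). Fitting only the groups compared gave 243, 372, 50 and 557 calls over all genes, against 675, 739, 508 and 231. Without the trend there were 193 with MRL24 and 142 between the ligands, without a filter 226 with MRL24, and with array weights 673 between the ligands.

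Another scaling moved the split of higher and lower calls over all genes. With MRL24 it was 294 and 214 in the values as deposited, 209 and 503 with equal medians and 259 and 332 with quantile normalization. With equal medians it was 305 and 536 with rosiglitazone, against 342 and 397, and 152 and 68 between the ligands, against 130 and 101. All members called under these scalings were higher, 6 and 7 with rosiglitazone and 9 and 9 between the ligands. A fit with the replicate number as a block gave 0 called members with S273A, 6 with rosiglitazone, 0 with MRL24 and 6 between the ligands. The numbers share only a name: residuals of same-numbered arrays correlated at -0.12 to 0.15 over 18 pairs, and 2 of 12 arrays correlated best with their own number.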

Other observations

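Skeletal and cardiac muscle markers, whose tissues rely on fatty acid oxidation, lay above the limit in 4 of 13 cases. Summed over all 13, intensity was 1151 to 1240 with S273A and 1220 to 1357 with rosiglitazone. It was 1239 to 1342 with MRL24 and 1137 to 1259 without ligand. Hepatocyte markers lay above the limit in 1 of 5 measured cases. Macrophage markers lay above the limit in 4 of 8 cases. All 8 summed to 3622 to 3738 with S273A and 3040 to 3371 with rosiglitazone. The sum was 3076 to 3183 with MRL24 and 2859 to 3356 without ligand. With S273A 1 of the 4 tested macrophage markers was called, Cd68, which rose by 0.63, where 2.31% of all tested genes were called higher. Adgre1, Csf1r and Cd14 were not called with S273A, at 0.12, 0.19 and 0.15. The rest lay under the limit and were not tested. None of the 4 was called in the other comparisons. No marker of these lists was at the floor on all arrays.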
